A study of Rattus norvegicus with 24 samples.

Results

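The data are bulk RNA-seq gene counts of the rostral posterior hypothalamic (rPH) region of adult Sprague-Dawley rats from Envigo, and the comparison described is that of rats with 3 loud noise exposures (the RS3 group) and no-noise control rats (the C group). All were males, per the methods of the study. Members were taken from the treatment labels. RS3 rats 7, 9, 10, 11 and 12 were set against C rats 19, 21, 22, 23 and 24, which makes 10 of the 24 rats, and each Ensembl gene that passed a filter on low counts, 16202 of 32883, was tested. The series also holds rats with 1 (AS) or 7 (RS7) loud noise exposures. RS3 rat 8, C rat 20 and 1 rat of each other group were kept out of the main comparison, because the methods of the study describe such libraries as poorly amplified or of low quality. All groups were placed daily in the noise chambers, where the loud noise was white noise once a day and C rats had fan noise only, and the last exposure fell on the same day for all rats. Blood was taken from each rat at the end of that exposure. Each rat was euthanized 24 h later than its last exposure, so the values are levels of the following day. The study held that a relatively steady state should be reached by then, which 1 time point cannot show. The tissue was a dissected block that holds many cell types, so fewer cells of a type and less RNA per cell cannot be told apart.

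The rPH is a region behind and above the hypothalamic nuclei that release stress hormones, and it is known for its part in hormonal, cardiovascular and thermal responses to stress and in the decline of these responses when the same stress is repeated. Its neurons use mainly glutamate or GABA, and GABA made from glutamate by the enzymes encoded by Gad1 and Gad2 is known to restrain the region. The block borders on the thalamus above and on peptide-producing nuclei in front. Defining hypothalamic transcription factors (Sim1, Isl1, Nhlh2 and Lhx5) had counts in all 10 rats. So did Foxp2, Rorb and Slc17a6, which are on the list of dorsal thalamus genes used below. Slc17a6, a vesicular glutamate transporter gene, is not particular to the thalamus, since neurons of the rPH use glutamate as well.

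Between 8087697 and 16947298 counts per rat were assigned to genes in these 10 rats, and the totals of C and RS3 rats overlapped (two-sided exact permutation p = 0.365, of 252 splits, smallest possible p 0.00794). In C rats 21 and 22 the 10 most abundant genes held 20.1% and 20.3% of the counts, and in the other C and RS3 rats 12.4% to 14.9% (exact permutation p = 0.0794 between the groups). Levels are CPM values, which are counts divided by TMM-adjusted library totals, given throughout in the order of C rats 19, 21, 22, 23 and 24 and of RS3 rats 7, 9, 10, 11 and 12. A log2 fold change is RS3 minus C from edgeR's quasi-likelihood fit, and SE is its standard error.

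No gene passed the threshold in the main test. The edgeR test, with Benjamini-Hochberg adjustment over 16202 genes, called 0 genes (0% of those tested) at an adjusted p of 0.05 or less, and the lowest adjusted p was 0.18, shared by 269 genes. An unadjusted p under 0.05 was found in 2639 genes (16.3%), 1279 of them higher (7.89%) and 1360 lower (8.39%) in RS3 rats. The DESeq2 Wald test, an alternative, called 38 genes, of which 20 were higher and 18 lower after 3 exposures, which is 0.333% of the 11426 genes it gave an adjusted p. Limma-voom with sample quality weights called 0 and had 2413 at an unadjusted p under 0.05. Single genes are therefore given as values, and none of them is an edgeR call with all rats. The edgeR adjusted p of the 99 genes followed lay between 0.18 and 0.916, and below 0.306 or at it where the unadjusted p was under 0.05. In what follows "at p under 0.05" means that unadjusted p.

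The differences were small. Among the 2639 genes the median size of the log2 fold change was 0.22, 91.0% were under 0.5, and 14 exceeded 1. When genes were split by mean level into 4 equal classes, the share at p under 0.05 was 8.52%, 13.8%, 17.8% and 25.1% from the least to the most abundant class, and the median SE was 0.22 in the first and 0.058 in the last. In 370 genes (2.28%) the 5 RS3 rats all lay on 1 side of the 5 C rats, 197 with the RS3 rats higher (1.22%) and 173 lower (1.07%). Of the 38 DESeq2 calls, 19 were among them. Rat-to-rat spread was wider in the C group, with a median SD of 0.14 log2 units over 14438 genes against 0.11 in the RS3 group.

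**Figure D1:**
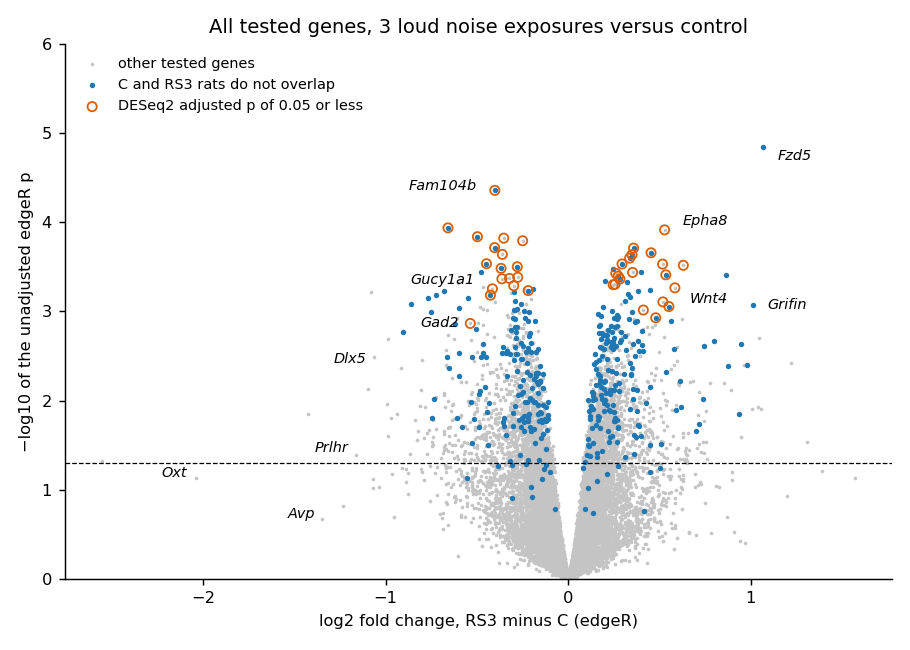
Each point is 1 of the 16202 tested genes, with the log2 fold change of RS3 minus C on the x axis and −log10 of the unadjusted edgeR p on the y axis, blue where the 5 C and 5 RS3 rats do not overlap and ringed in orange where DESeq2 called the gene. The dashed line marks the unadjusted threshold of 0.05. Fzd5 stands highest, and the 38 DESeq2 calls lie between 0.22 and 0.66 in size of log2 fold change on either side.

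The gene with the lowest edgeR p was Fzd5, which encodes a Frizzled receptor for Wnt ligands, secreted proteins that in the canonical pathway stabilize β-catenin in the receiving cell. Fzd5 (ENSRNOG00000014678) was measured at 2.08, 1.46, 1.68, 3.76 and 1.77 CPM in the C rats and 4.86, 5.05, 5.67, 3.82 and 4.11 CPM in the RS3 rats. Every RS3 rat was above every C rat, although C rat 23, at 3.76 CPM, came close to the lowest RS3 rat. The C mean was 2.15 ± 0.927 CPM and the RS3 mean 4.70 ± 0.743 CPM (SD, n = 5 each), with a log2 fold change of 1.07 (SE 0.20). DESeq2 left it without an adjusted p because of its low mean count. It had 2.61 ± 0.562 CPM after 1 exposure (AS) and 4.92 ± 0.348 CPM after 7 (RS7).

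Of the ligands of the same pathway, Wnt4, Wnt2b, Wnt9b and Wnt3 were higher at p under 0.05, and Wnt9b and Wnt3 were above that threshold without C rats 21 and 22. Wnt4 (ENSRNOG00000013166) had 29.0, 20.4, 27.7, 33.2 and 29.0 CPM in the C rats and 46.8, 44.4, 43.1, 31.6 and 45.4 CPM in the RS3 rats, with a log2 fold change of 0.58 (SE 0.14) and a DESeq2 adjusted p of 0.0408. Only RS3 rat 11 lay within the range of the C rats. Among the other ligands the log2 fold change was 0.50 for Wnt2b (SE 0.18), 0.42 for Wnt9b (SE 0.16) and 0.29 for Wnt3 (SE 0.14). Wls, which carries Wnt proteins to the cell surface, had a log2 fold change of 0.20 (SE 0.081).

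Lypd6 and Lypd6b encode membrane-anchored proteins related to Ly6, and Lypd6 is known to enhance Wnt signalling at the Lrp6 coreceptor. Lypd6 had 30.8, 25.4, 27.5, 38.6 and 30.8 CPM in the C rats and 31.7, 47.3, 53.7, 40.3 and 46.9 CPM in the RS3 rats, with a log2 fold change of 0.52 (SE 0.13) and a DESeq2 adjusted p of 0.0484. RS3 rat 7 was within the C range and C rat 23 was above it. Lypd6b gave 14.3, 7.32, 12.7, 21.4 and 13.3 CPM in the C rats and 13.3, 27.4, 25.9, 21.2 and 24.9 CPM in the RS3 rats and a log2 fold change of 0.68 (SE 0.22), and RS3 rats 7 and 11 lay in the range of the C rats. Ctnnb1, which encodes β-catenin itself, had a log2 fold change of 0.25 (SE 0.074), and Tnks and Tnks2, encoding the tankyrases that promote the breakdown of Axin, had log2 fold changes of 0.17 (SE 0.059) and 0.18 (SE 0.073). Dvl2, a cytoplasmic relay of Frizzled signals, was the list member at p under 0.05 that was lower in RS3 rats (-0.24).

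Of the 38 genes on the Wnt list 19 had an identifier, and these gave 20 identifiers that were tested. At an unadjusted p under 0.05, 11 identifiers were higher and 1 was lower, and the median log2 fold change was 0.22 against -0.0022 over all genes. The identifiers of this list and all others below are only genes the study itself listed as different in these rats, which is where the 742 symbols come from. Their counts are therefore not independent evidence of a direction, and list members without an identifier could not be looked up. Of those 742 genes, 251 (33.8%) had an unadjusted p under 0.05, 162 higher (21.8%) and 89 lower (12%), and the list counts are to be read against these shares.

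**Figure D2:**
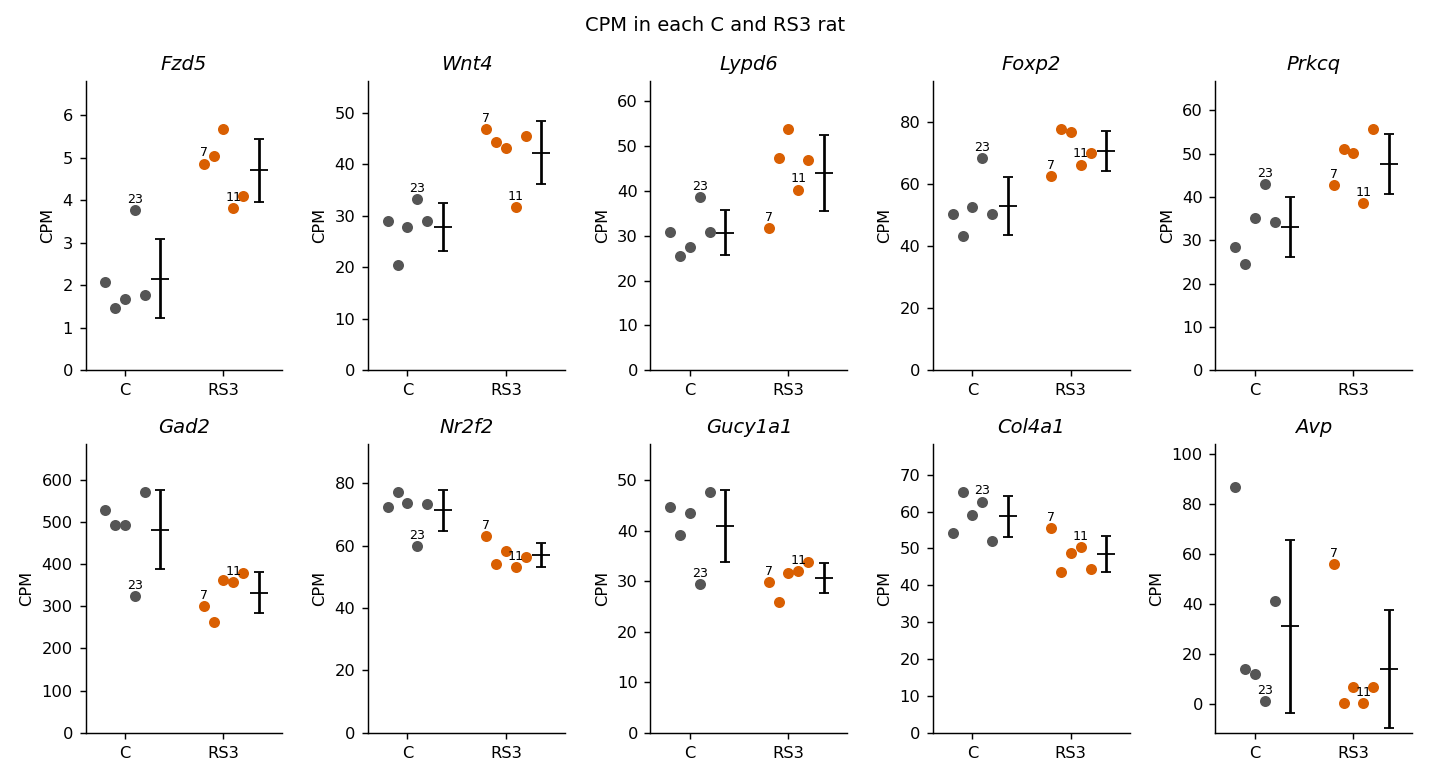
CPM on the y axis in each of the 5 C rats (grey) and 5 RS3 rats (orange) for 10 genes, with the group mean and SD beside the points and rats 23, 7 and 11 numbered. In 9 of the panels the group means differ at an unadjusted p under 0.05, C rat 23 lies nearest to the RS3 rats in 8 of those 9, the exception being Col4a1, and Avp varies most within each group.

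Of 6 genes of GABA synthesis, vesicle loading and uptake 3 had an identifier, and 2 of these, Gad2 and Gad1, were lower in the RS3 rats at p under 0.05. Gad2 (ENSRNOG00000018200), which encodes the GABA-synthesizing enzyme bound to synaptic vesicles, had 528, 493, 494, 323 and 571 CPM in the C rats and 299.9, 262, 363, 357 and 378 CPM in the RS3 rats. Apart from C rat 23, at 323 CPM, every C rat was above every RS3 rat. The group mean went from 482 ± 94.2 to 332 ± 49.0 CPM (SD, n = 5 each), with a log2 fold change of -0.54 (SE 0.14) and a DESeq2 adjusted p of 0.0484. Gad1, which encodes the second such enzyme, had 283, 223, 268, 188 and 323 CPM in the C rats and 204, 159, 196, 213 and 211 CPM in the RS3 rats and a log2 fold change of -0.39 (SE 0.13). The vesicular GABA transporter gene Slc32a1, the third member of that list with an identifier, had a log2 fold change of -0.23 (SE 0.13) and did not reach p under 0.05.

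Transcription factors of forebrain GABA neurons had the same direction. In that list 4 of 5 identifiers, among them Nr2f2, Dlx5 and Dlx6, were lower at an unadjusted p under 0.05 and 0 were higher. Nr2f2, which encodes the nuclear receptor COUP-TFII, had 72.2, 77.2, 73.7, 59.9 and 73.4 CPM in the C rats and 63.0, 54.1, 58.3, 53.0 and 56.2 CPM in the RS3 rats, with a log2 fold change of -0.32 (SE 0.079) and a DESeq2 adjusted p of 0.0492. The 4 other C rats lay above all RS3 rats and C rat 23 lay among them. Dlx5, one of the homeobox genes that specify GABA neurons, had 5.40, 4.92, 4.29, 1.68 and 4.07 CPM in the C rats and 2.27, 1.66, 1.83, 1.70 and 2.17 CPM in the RS3 rats and a log2 fold change of -1.06 (SE 0.32), again with C rat 23 as the only C rat in the RS3 range. Dlx6, a neighbouring member of the same homeobox family, had a log2 fold change of -0.59 (SE 0.20), and the factor Isl1 had -0.64 (SE 0.36).

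GABA receptor genes did not share this direction. Gabrd, which encodes the δ subunit of extrasynaptic GABA-A receptors, had 43.9, 30.9, 43.1, 51.4 and 42.0 CPM in the C rats and 62.0, 84.4, 53.7, 42.3 and 62.6 CPM in the RS3 rats, and its log2 fold change of 0.52 (SE 0.20) was positive. Gabrb2, which encodes a β subunit, had a log2 fold change of 0.33 (SE 0.13). The 5 receptor identifiers had a median of 0.22, with 2 higher and 0 lower at p under 0.05. Of 4 glutamate receptor identifiers 0 had a p under 0.05, and the log2 fold changes lay between -0.02 for Grin2b and 0.27 for Grin2a, the latter from 0.13 to 0.35 with 1 rat left out.

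Of the 14 genes on the dorsal thalamus list, which shares Tcf7l2 and Lef1 with the Wnt list, 9 had an identifier, and these gave 10 identifiers. All 10 had a positive log2 fold change (median 0.23), and Foxp2, Slc17a6 and Rorb had a p under 0.05. These 3 of 10 are not above the 33.8% of genes with a symbol at p under 0.05. Among the latter more were higher (162) than lower (89). Slc17a6 and Rorb were above that threshold without C rats 21 and 22. Foxp2 (ENSRNOG00000054508), which encodes a forkhead transcription factor, had 50.3, 43.4, 52.5, 68.3 and 50.3 CPM in the C rats and 62.7, 77.7, 76.7, 66.3 and 70.2 CPM in the RS3 rats, with a log2 fold change of 0.41 (SE 0.11) and a DESeq2 adjusted p of 0.0492. C rat 23 lay above RS3 rats 7 and 11, and the 4 other C rats lay below all RS3 rats. The summed level of the 10 identifiers was 1300.1 to 1723 CPM in C rats and 1394 to 2084 CPM in RS3 rats, and apart from RS3 rat 11, which had the lowest RS3 sum, each RS3 rat exceeded the highest C rat. Slc17a6 alone had 562 to 759 CPM in the RS3 rats, so it is a large part of these sums. None of the 10 identifiers was at 0 in any rat.

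Negative log2 fold changes were found in 3 of 4 hypothalamic transcription factor identifiers (median -0.50) and in 5 of 6 peptide identifiers (median -0.78). The former include Isl1, which is also on the list of forebrain GABAergic transcription factors above. Of the 4 hypothalamic transcription factor identifiers, Sim1 (-0.55, SE 0.22) and Lhx5 (-0.45, SE 0.20) were lower and Nhlh2 (0.25, SE 0.11) was higher at an unadjusted p under 0.05. Their summed level was 33.6 to 47.9 CPM in C rats and 30.2 to 39.2 CPM in RS3 rats. Peptide genes varied widely between rats. Avp, which encodes vasopressin, had 86.8, 14.0, 11.7, 1.07 and 41.2 CPM in the C rats and 55.9, 0.237, 6.53, 0.170 and 6.77 CPM in the RS3 rats, with a log2 fold change of -1.35 (SE 1.04), and Oxt, which encodes oxytocin, had 123, 14.1, 19.2, 0.604 and 80.7 CPM in the C rats and 36.5, 0.713, 10.6, 0.340 and 15.6 CPM in the RS3 rats, with a log2 fold change of -2.04 (SE 1.06). Both genes were high in C rat 19, C rat 24 and RS3 rat 7 and low in C rat 23 and RS3 rats 9 and 11. Trh, which encodes thyrotropin-releasing hormone, had 62.1, 29.4, 44.9, 13.4 and 62.8 CPM in the C rats and 45.7, 7.07, 23.2, 7.73 and 23.7 CPM in the RS3 rats, with a log2 fold change of -1.04 (SE 0.58), and again C rat 23 and RS3 rats 9 and 11 were low. With 1 rat left out the log2 fold change ranged from -3.19 to -0.44 for Avp, from -2.84 to -1.28 for Oxt and from -1.46 to -0.79 for Trh. Of 6 peptide identifiers (Avp, Oxt, Trh, Gal, Penk and Cck) 0 had a p under 0.05. The part of the dissection in the differences between C and RS3 rats was not tested.

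**Figure D3:**
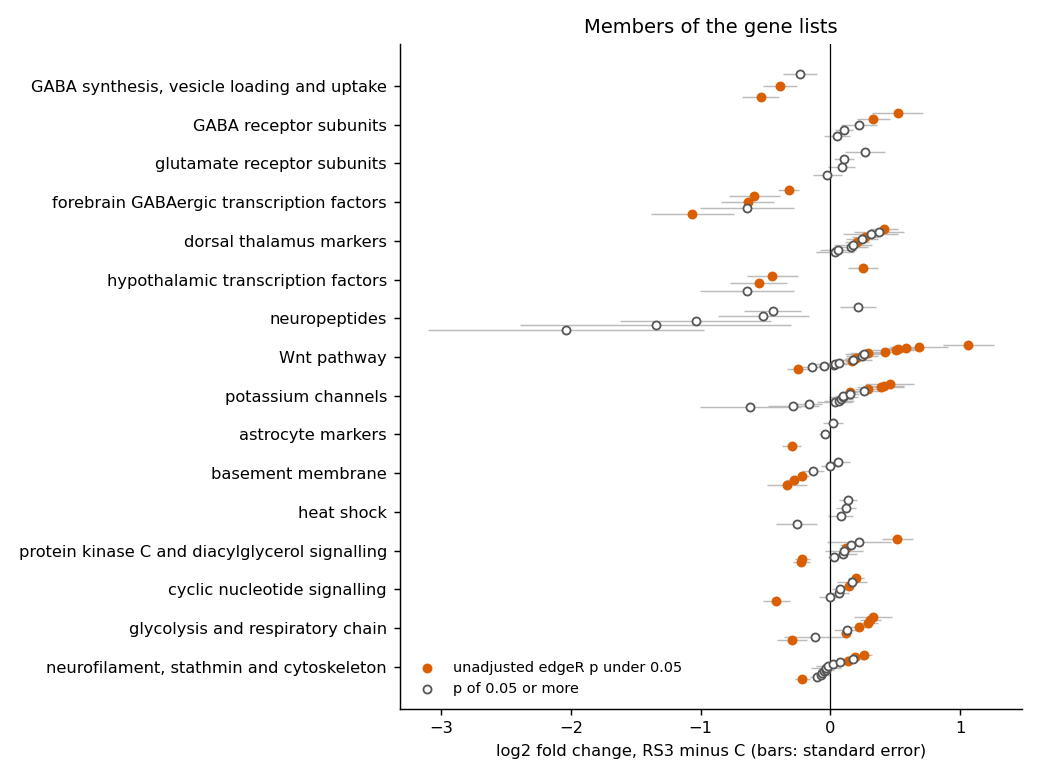
Each point is 1 identifier, placed by list on the y axis, at its log2 fold change of RS3 minus C on the x axis, with its SE as a bar, filled orange where the unadjusted edgeR p was under 0.05. A gene on more than 1 list is shown in each. Members of the GABA synthesis and GABAergic transcription factor lists lie below 0, the thalamus list lies above 0, and the peptides have SEs of up to 1.1.

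Signalling genes outside the Wnt list included a kinase and a cyclase with larger differences. Prkcq (ENSRNOG00000019057), which encodes protein kinase C θ, had 28.5, 24.6, 35.2, 43.0 and 34.3 CPM in the C rats and 42.7, 51.2, 50.2, 38.7 and 55.7 CPM in the RS3 rats, with a log2 fold change of 0.52 (SE 0.12) and a DESeq2 adjusted p of 0.0408. C rat 23 was again the C rat inside the RS3 range. Marcks, which encodes the major membrane-bound substrate of protein kinase C, was lower, with 247, 252, 237, 232 and 222 CPM in the C rats and 211, 175, 216, 215 and 209 CPM in the RS3 rats, no overlap between the groups and a log2 fold change of -0.21 (SE 0.057). In the list of 9 identifiers of protein kinase C and diacylglycerol signalling 2 were higher (Prkcq and Prkcb) and 2 were lower (Marcks and Plcd4) at p under 0.05. Gucy1a1, which encodes a subunit of the nitric oxide receptor guanylyl cyclase, had 44.8, 39.1, 43.6, 29.5 and 47.7 CPM in the C rats and 29.8, 25.9, 31.7, 32.1 and 33.8 CPM in the RS3 rats, with a log2 fold change of -0.42 (SE 0.10) and a DESeq2 adjusted p of 0.0492. Adcy9, an adenylyl cyclase gene, and Akap11, an anchor of protein kinase A, had log2 fold changes of 0.20 (SE 0.06) and 0.14 (SE 0.048). At p under 0.05, 2 of the 7 cyclic nucleotide identifiers were higher and 1 was lower.

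Among 15 potassium channel identifiers, 5 were higher at p under 0.05 and 0 were lower, with a median of 0.10. They included Kcnh5 (0.46, SE 0.19), Kcnh7 (0.41, SE 0.16), Kcnmb4 (0.39, SE 0.18) and Kcnj12 (0.29, SE 0.099). Kcnh5, which encodes an ether-à-go-go channel, had 4.63, 3.73, 6.39, 5.17 and 5.92 CPM in the C rats and 5.51, 9.74, 6.65, 5.18 and 8.05 CPM in the RS3 rats, and RS3 rats 7 and 11 lay within the C range.

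Metabolic genes at p under 0.05 differed in both directions. In the list of 8 glycolysis and respiratory chain identifiers 5 were higher and 1, the mitochondrial carrier gene Ucp2, was lower at p under 0.05 (median 0.18). Pgk1, which encodes phosphoglycerate kinase, had 113, 93.8, 100.1, 121 and 113 CPM in the C rats and 126, 146, 127, 126 and 140.1 CPM in the RS3 rats, without overlap, a log2 fold change of 0.29 (SE 0.07) and a DESeq2 adjusted p of 0.0492. Cox7a2, which encodes a subunit of cytochrome c oxidase, had no overlap either (66.9, 52.6, 50.3, 70.1 and 61.3 CPM in the C rats and 73.6, 77.7, 70.1, 76.0 and 78.2 CPM in the RS3 rats), with a log2 fold change of 0.31 (SE 0.08). The others higher at p under 0.05 were Pdp1 (0.33) and Pdk3 (0.22), which act on pyruvate dehydrogenase in opposite ways, and Pkm (0.12), the pyruvate kinase gene, with the log2 fold change in parentheses. Aldoart2, a retrogene related to aldolase A that may share reads with it, had 7.17, 5.46, 4.61, 6.24 and 6.45 CPM in the C rats and 8.32, 8.91, 8.11, 9.35 and 9.26 CPM in the RS3 rats.

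Genes of vessel walls, astrocytes and cell structure gave smaller differences. Aqp4, which encodes the water channel of astrocyte endfeet, had 995, 1305, 1127, 1043 and 918 CPM in the C rats and 898, 836, 848, 964 and 832 CPM in the RS3 rats, with a log2 fold change of -0.30 (SE 0.075) and a DESeq2 adjusted p of 0.0492. Its highest values were those of C rats 21 and 22. The other astrocyte identifiers, the glutamate transporter genes Slc1a2 and Slc1a3, had log2 fold changes of 0.02 and -0.04 and did not reach p under 0.05. Of 6 identifiers on the basement membrane list 3 were lower and 0 were higher at p under 0.05. The 3 were Col4a1, Utrn and Lama3, and Utrn does not encode a basement membrane component. Col4a1, a chain of collagen IV, had 54.1, 65.3, 59.2, 62.7 and 52.2 CPM in the C rats and 55.4, 43.6, 48.9, 50.3 and 44.4 CPM in the RS3 rats, with a log2 fold change of -0.28 (SE 0.068) and a DESeq2 adjusted p of 0.0492. Utrn, which encodes the dystrophin relative utrophin, had a log2 fold change of -0.22 (SE 0.056) and no overlap, and Lama3, a laminin chain, had a log2 fold change of -0.33 (SE 0.15). The single endothelial identifier, Plvap, had 0.20 (SE 0.14), from 0.05 to 0.28 with 1 rat left out, and the oligodendrocyte, microglia and choroid plexus lists had no identifier. In the cytoskeleton list of 14, members higher at p under 0.05 included Stmn1 and Nefl, and Marcks was lower. Stmn1, which encodes the microtubule regulator stathmin, had 261, 222, 252, 291 and 277 CPM in the C rats and 322, 312, 310.4, 281 and 332 CPM in the RS3 rats and a DESeq2 adjusted p of 0.0492.

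Few genes known to respond to stress or activity within hours had an identifier, namely 2 of 10 on the glucocorticoid list, 4 of 8 on the heat shock list and 1 of 10 on the immediate-early list, and these did not reach p under 0.05 in the main test. They were Klf9 and Cdkn1a among glucocorticoid-responsive genes, the 4 heat shock identifiers, whose log2 fold changes lay between -0.26 and 0.14, and the immediate-early gene Arc (-0.28, SE 0.18). In libraries thinned to the lowest total, Arc had -0.44 and an unadjusted p under 0.05.

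Among genes with a symbol and without overlap, list members included, those with the lowest p that were higher in RS3 rats were, after Fzd5, Tp53i11, Abhd8, Wbp4 (an RNA splicing factor), Pgk1, Aldoart2, Cope (a coatomer subunit), Slc36a4 (an amino acid transporter), Atxn7l3 (a subunit of the SAGA deubiquitinase), Cox7a2, Grifin (a galectin relative of the lens) and Trnp1. Tp53i11 had 61.4, 43.1, 47.5, 58.1 and 53.0 CPM in the C rats and 83.0, 70.5, 75.1, 71.4 and 63.4 CPM in the RS3 rats, with a log2 fold change of 0.45 (SE 0.10) and a DESeq2 adjusted p of 0.0408. Abhd8 had 142, 110.2, 117, 158 and 142 CPM in the C rats and 164, 179, 173, 166 and 174 CPM in the RS3 rats and a DESeq2 adjusted p of 0.047. In both genes C rats 21 and 22 held the lowest values. Wbp4 had 37.4, 26.9, 31.3, 35.8 and 34.7 CPM in the C rats and 43.5, 40.1, 42.7, 44.0 and 41.1 CPM in the RS3 rats, with the RS3 rats between 40.1 and 44.0 CPM. The log2 fold changes of the 12 genes ran from 0.27 for Cope to 1.07 for Fzd5.

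The corresponding lower genes were Fam104b, Ccar1 (a transcriptional coactivator), Ino80e (a subunit of the INO80 chromatin remodeller), Utrn, Tfg (a protein of endoplasmic reticulum exit sites), Tchh, Marcks, Fam20a, Ntrk3 (the receptor for neurotrophin-3), Pitpnm2 (a phosphatidylinositol transfer protein), Iws1 (a transcription elongation factor) and Syt15 (a synaptotagmin). Fam104b had 15.9, 20.4, 18.0, 16.3 and 18.7 CPM in the C rats and 12.9, 13.7, 14.1, 12.4 and 13.7 CPM in the RS3 rats, with the lowest p of all lower genes and a log2 fold change of -0.40 (SE 0.081) (DESeq2 adjusted p = 0.0408). Ino80e had 34.2, 39.7, 45.2, 36.7 and 45.5 CPM in the C rats and 28.0, 30.9, 30.8, 32.7 and 32.9 CPM in the RS3 rats and a DESeq2 adjusted p of 0.0492. Ntrk3 had 34.2, 43.5, 38.8, 32.8 and 33.9 CPM in the C rats and 27.9, 28.1, 30.2, 32.5 and 30.2 CPM in the RS3 rats, with its highest value in C rat 21. Their log2 fold changes ran from -0.16 for Pitpnm2 to -0.62 for Fam20a. Without symbols, ENSRNOG00000017372 and ENSRNOG00000029280 were higher (0.36 and 0.24) and ENSRNOG00000062102 and ENSRNOG00000001271 were lower (-0.66 and -0.50).

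The largest log2 fold changes at p under 0.05 and a mean of at least 1 CPM were those of Fzd5, Grifin (1.01, SE 0.27), Ctxn3 (0.89, SE 0.29), Myo15b (0.76, SE 0.36) and Acpp (0.75, SE 0.29) among higher genes. Among lower genes they included Prlhr (-1.16, SE 0.53), Dlx5, Slc12a3 (-0.66, SE 0.19) and Cckbr (-0.66, SE 0.24). Prlhr encodes the receptor for prolactin-releasing peptide and Cckbr a cholecystokinin receptor. Ctxn3 had 8.48, 10.1, 11.9, 27.6 and 8.75 CPM in the C rats and 16.1, 32.1, 25.7, 27.1 and 25.5 CPM in the RS3 rats, and C rat 23 lay with the RS3 rats. Myo15b, with 1.46, 1.86, 1.05, 1.21 and 1.15 CPM in the C rats and 4.32, 3.44, 1.10, 1.61 and 1.05 CPM in the RS3 rats, was high in RS3 rats 7 and 9 alone. Prlhr, with 3.47, 1.86, 3.04, 0.671 and 4.77 CPM in the C rats and 2.70, 0.831, 0.793, 1.10 and 1.13 CPM in the RS3 rats, was high in RS3 rat 7.

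C rat 23 was the C rat nearest to the RS3 mean, on the log2 scale, in 21 of the 38 DESeq2 calls and in 1264 of the 2639 genes with p under 0.05, and over all genes in 4975 of 16202. C rats 21 and 22 were nearest in 0 of the 38 each. Without C rat 23 the edgeR test called 17 genes, 9 higher and 8 lower, and with any other C or RS3 rat left out it called 0. The higher calls with symbols were then Fzd5 (log2 fold change 1.41, adjusted p = 0.000751), Epha8 (log2 fold change 0.66, adjusted p = 0.0216), Ctxn3 (log2 fold change 1.40, adjusted p = 0.0216), Cndp2 (log2 fold change 0.44, adjusted p = 0.0216), Prkcq (log2 fold change 0.64, adjusted p = 0.0223), Foxp2 (log2 fold change 0.53, adjusted p = 0.0278) and Abhd8 (log2 fold change 0.42, adjusted p = 0.0278). The lower ones were Gucy1a1 (log2 fold change -0.52, adjusted p = 0.0178), Gad2 (log2 fold change -0.65, adjusted p = 0.0354), Nr2f2 (log2 fold change -0.38, adjusted p = 0.0462) and Fam104b (log2 fold change -0.43, adjusted p = 0.0462). Epha8 encodes an ephrin receptor and Cndp2 a cytosolic dipeptidase. No ground for leaving out C rat 23 is given in the labels, and it was left out only as 1 of the 10 rats in turn.

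The number of genes with an unadjusted p under 0.05 rested on C rats 21 and 22. Leaving out C rat 21 gave 1489 such genes, C rat 22 gave 1577 and both gave 730. A covariate for how much of each library its 10 top genes took gave 793, and returning the 4 left-out rats gave 812. All 78 genes with p under 0.001 and all 38 DESeq2 calls had an edgeR p under 0.05 without C rats 21 and 22 and with the covariate, with a median size of 0.30 and 0.28 in the 38 against 0.37, while 578 and 550 of the 2639 did. With all 24 rats, 26 of the 38 and 50 of the 78 did. Genes chosen at a lower p have more room to stay under 0.05, so this is a weak check. Of the 370 genes without overlap, 193 had p under 0.05 without both rats and 186 with the covariate. The 24 named genes with the lowest p and no overlap stayed under 0.05, but their median size of 0.34 became 0.21 without both rats and 0.19 with the covariate. Of the list members named here, Nhlh2, Lhx5, Tnks, Prkcb, Pkm, Gabrd, Gabrb2, Slc17a6, Rorb, Wls, Wnt3, Wnt9b, Tnks2, Kcnmb4, Kcnj12, Pdp1, Ucp2, Lama3 and Nefl were above that threshold without both rats, as were Ctxn3, Myo15b, Acpp and Prlhr among the largest differences, whereas Fzd5, Gad2, Gad1, Foxp2, Prkcq, Wnt4, Lypd6, Nr2f2 and Gucy1a1 were below it. Without both rats the log2 fold change was 0.86 for Fzd5, -0.51 for Gad2, 0.33 for Foxp2 and 0.47 for Wnt4, and it was 0.41 for Gabrd and 0.08 for Wls. The part of library composition in the larger count was not tested further.

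**Figure D4:**
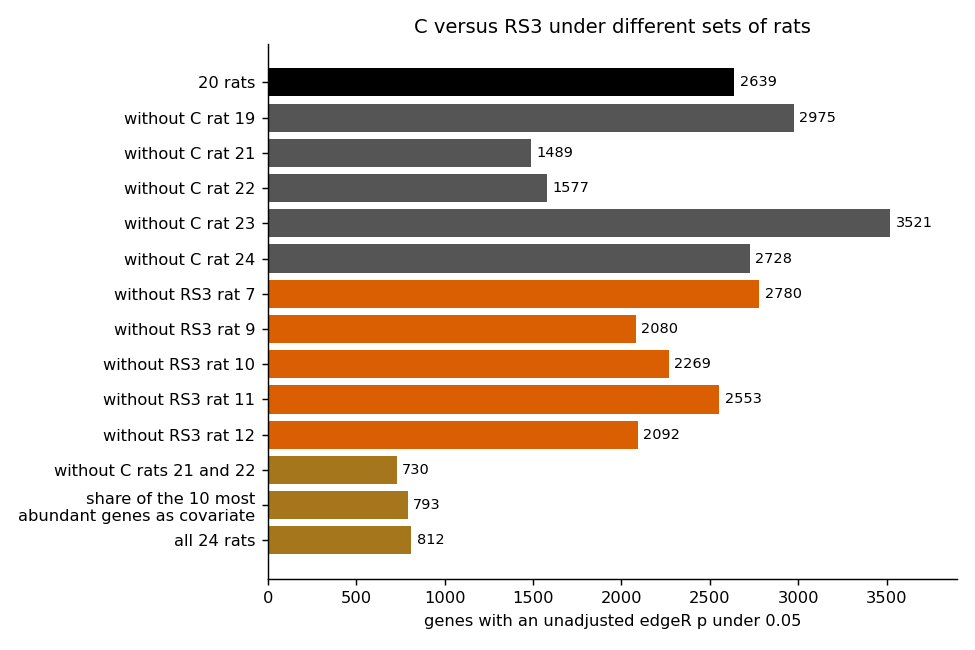
Bars give the number of genes with an unadjusted edgeR p under 0.05 between C and RS3 rats (x axis) with the 20 rats of the main fit (black), with each C rat (grey) or RS3 rat (orange) left out, and under 3 other settings (brown). The count falls from 2639 to 1489 and 1577 without C rats 21 and 22 and rises to 3521 without C rat 23.

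The AS and RS7 rats form the 1 other comparison that shares no rat with the C and RS3 rats, and it sets 1 against 7 exposures. Of the 38 genes called by DESeq2 in C versus RS3, 27 had the same sign in AS versus RS7, and 12 of these had an unadjusted edgeR p under 0.05 there (16.2% of all genes did), while 0 of the 11 with the opposite sign did. The RS7 minus AS log2 fold change was 0.66 (SE 0.11) for Foxp2, 0.60 (SE 0.12) for Prkcq, 0.60 (SE 0.13) for Lypd6, 0.42 (SE 0.14) for Wnt4, -0.55 (SE 0.14) for Gad2 and -0.55 (SE 0.10) for Gucy1a1. Others among the 38 were near 0 there, with -0.05 for Nr2f2, 0.04 for Aqp4, 0.09 for Ino80e, 0.07 for Ccar1, -0.11 for Wbp4 and 0.01 for Cope. In C versus AS, 25 of the 38 had an unadjusted edgeR p under 0.05 (10% of all genes did). For AS versus RS3 this number was 17 (4.61%), and for C versus RS7 it was 36 (17.9%). These comparisons share C or RS3 rats with the one that gave the calls, so the counts are not independent of it. With these values the 38 are not shown to be particular to 3 exposures.

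Over the 2639 genes with p under 0.05, the share with the same sign in AS versus RS7 was 51.0%, against 51.8% of all 16202 genes. This share depended on the rats in the fit. It was 66.7% of the 730 genes without C rats 21 and 22, 67.7% with the covariate and 69.2% with all 24 rats, each over the genes with p under 0.05 in that fit. Across all genes Pearson's r between both sets of log2 fold changes was 0.22, a description in which genes are not independent and in which a shared estimate of spread and gene abundance enter both sides. The rats left out of the main fit gave a second set of values. RS3 rat 8 minus C rat 20 had the same sign as the main comparison in 22 of the 38 DESeq2 calls and in 57.1% of the 2639 genes, against 53.3% of all genes.

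**Figure D5:**
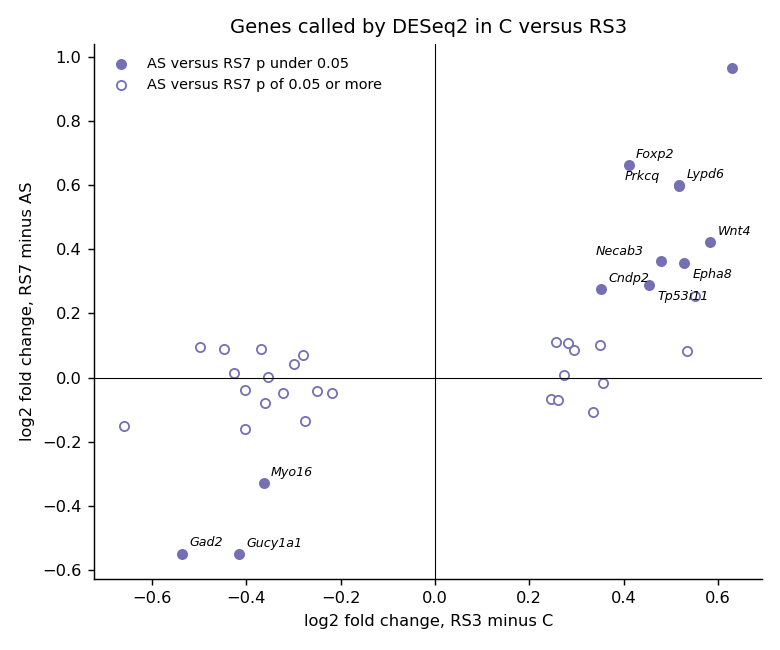
Each of the 38 genes called by DESeq2 in C versus RS3 is placed by its edgeR log2 fold change of RS3 minus C (x axis) and of RS7 minus AS (y axis), filled where the unadjusted p of the latter was under 0.05. The 12 filled genes lie at the lower left and upper right, and 11 of the open genes have opposite signs on both axes, with RS7 minus AS values from -0.11 to 0.10.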

How the data were processed

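The authors prepared polyA RNA libraries of 24 rats, trimmed read pairs, aligned these to the rn6 genome and counted the reads of each gene (Trimmomatic 0.36, HISAT2 2.0.5 and featureCounts, per the labels), and deposited 1 table of unnormalized counts for 32883 Ensembl genes. Strandedness and the treatment of multi-mapping reads are not given in the sources used here, so overlapping or near-identical genes may exchange reads. Symbols for 742 identifiers came from the study's own gene table. That table's mean counts were matched for 808 of 808 identifiers (relative tolerance 1e-06) by 1 of 1296 ways to leave out 1 rat per group, which gave the left-out rats (rats 20 of C, 18 of AS, 8 of RS3 and 1 of RS7).

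Counts were tested with edgeR 4.0.16 in R 4.3.3 (TMM, filterByExpr with a minimum count of 10, robust quasi-likelihood test, Benjamini-Hochberg adjustment, threshold 0.05), with 5 rats per group and all 4 groups in 1 fit without covariates, since the study's DESeq2 test used the same rats. The standard error is the size of the log2 fold change divided by the square root of the F statistic. DESeq2 1.42.0 and limma 3.58.1 were alternatives, with all 24 rats, only C and RS3 rats, no filter, DESeq2 size factors, thinned libraries, 1 surrogate variable (sva 3.50.0), the share of the 10 most abundant genes as a covariate, and each rat left out. Leaving out C rats 21 and 22, with or without RS7 rat 4, was chosen after seeing the data. The rats come from separate animals. The members, lists and tests were chosen with earlier results of these data known. Named genes are the 12 lowest p in each direction without overlap of the groups, the 5 largest differences in each direction at p under 0.05 and a mean of at least 1 CPM, list members, Kcnh5 and Avp. Epha8 and the other genes outside these rules were added after their values were seen. Some genes that these rules name are not reported here. Scripts were tested on simulated data.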

Additional observations from a re-analysis of the deposited data

Results flagged for a closer look

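In 11 of 202 groups of 5 values tested, 1 rat lay so far from the other 4 that the gap to its nearest neighbour exceeded 0.71 of the group's range. Chance alone flags about 1 group in 20. Each value is set beside the range of the other rats of its group.

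RS3 rat 11 was low in 5 genes. It had 31.6 CPM of Wnt4 (43.1 to 46.8 CPM in the other RS3 rats), 562 CPM of Slc17a6 (712 to 759 CPM), 190.1 CPM of Slc1a2 (226 to 238 CPM), 11.7 CPM of Kcnmb4 (20.0 to 23.3 CPM) and 56.8 CPM of Tfg (58.3 to 58.8 CPM). C rat 23 stood out in 3 genes, with 3.76 CPM of Fzd5 (1.46 to 2.08 CPM in the other C rats), 27.6 CPM of Ctxn3 (8.48 to 11.9 CPM) and 59.9 CPM of Nr2f2 (72.2 to 77.2 CPM), in each case on the side of the RS3 rats. RS3 rat 7 was high in 2 genes, with 2.70 CPM of Prlhr (0.793 to 1.13 CPM) and 55.9 CPM of Avp (0.170 to 6.77 CPM). RS3 rat 9 had 175.3 CPM of Marcks (209 to 216 CPM).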

How the results depend on the processing

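No paired analysis was possible because the rat numbers are not shared between groups. The edgeR count of 0 held in every alternative run with edgeR or limma-voom except without C rat 23. DESeq2 gave 38 calls with filtering set for 0.05, the setting of the DESeq2 values in the text, and 36 with its default filtering. Which genes were called depended on this setting. Fam104b, Epha8, Trnp1 and Aldoart2 were among those called at the first setting that had no adjusted p at the default. Cox7a2, Atxn7l3, Tfg and Marcks were called only at the default. Leaving out 1 rat gave 0 to 17 edgeR calls, 1489 to 3521 genes with an unadjusted p under 0.05, and 425 to 1109 genes without overlap. The number with p under 0.05 was 812 with all 24 rats, 1263 with 1 surrogate variable, 793 with the covariate, 730 without C rats 21 and 22 and 893 also without RS7 rat 4. Genes without overlap numbered 44 with all 24 rats and 608 without C rats 21 and 22, where fewer rats make separation easier.

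The share with the same sign in AS versus RS7 was 69.2% with all 24 rats, 67.7% with the covariate, 66.7% without C rats 21 and 22, 70.8% also without RS7 rat 4, and 42.8% to 66.4% with 1 rat left out, highest without RS7 rat 4. Pearson's r across genes was 0.024 with no filter on low counts and 0.099 to 0.32 with 1 rat left out. The causes were not tested. The difference in the share of the 10 most abundant genes, -3.07 percentage points in the main comparison, was -3.80 to -2.13 with 1 rat left out, and its exact permutation p fell to 0.0317 without C rat 23. The difference in total counts was 767776.65 to 2702140.9.

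Of 99 genes followed through 32 alternatives, 98 kept their direction. Slc1a2 turned from 0.02 to -0.013 in thinned libraries, -0.0024 without RS3 rat 9 and -0.037 without C rat 19, and was 0.097 without C rat 22. Depth limits genes near 1 CPM, such as Grifin, Myo15b and Prlhr, which rest on few reads per rat.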
